A study of Prunus avium with 18 samples.

Results

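Gene expression in dormant flower buds of sweet cherry (Prunus avium) was compared between December and February 12, the first and the last of the 4 sampling dates that the study assigns to endodormancy. By its test of bud growth in the warm, release from dormancy in that season came later still, after the last sampling date. Endodormancy is the phase of winter rest in which a bud stays closed whatever the weather, until enough cold has accumulated. The comparison takes in 6 of the 18 RNA-seq libraries of the series, 3 from December 8, 2017 and 3 from February 12, 2018, and all 48133 annotated genes of the 'Regina' genome. The other 12 libraries come from October 17, January 3, January 15 and March 12 of the same winter, 3 at each date. All buds were of 'Fertard', a late flowering cultivar with a high chilling requirement, grown grafted in the orchard with no treatment or genetic change. Each replicate is a set of independent buds from 1 of 3 trees. The December libraries are labelled 17/12/2012, which differs from the study's own December date, and that date, December 8, 2017, was used. Whole flower buds were ground for RNA, so that fewer cells of a type and less RNA per cell cannot be told apart. No gene list that defines flower bud tissue was at hand, and the tissue label was not checked against markers.

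The study asked how the routes by which water, sugars and signals enter a bud change over winter, and selected candidate genes for them, of which the 585 different identifiers of its gene table were used here. Neighbouring plant cells are joined by plasmodesmata, narrow channels through the wall that form the symplasmic route. Callose, a beta-1,3-glucan, constricts these channels when callose synthases deposit it at their necks, and beta-1,3-glucanases open them by degrading it. Aquaporins carry water across membranes, and enzymes that build and modify cellulose and pectin shape the wall space of the apoplastic route.

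Of the 48133 genes, 13282 had no count in any library and 26248 passed the filter on low counts and were tested. The test called 3274 genes (12.5% of those tested) higher and 1384 (5.27%) lower on February 12 than in December, at an adjusted p under 0.05 and a change of over 2-fold in edgeR's quasi-likelihood test. The higher genes had a median log2 fold change of 2.10, with 923 of them over 3, and the lower genes one of -1.39, with 98 of them under -3. The median over all tested genes was -0.0022. Expression levels below are CPM, the count of a gene per 1000000 counts of the scaled library, and they compare dates within 1 gene and not genes with each other.

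**Figure D1:**
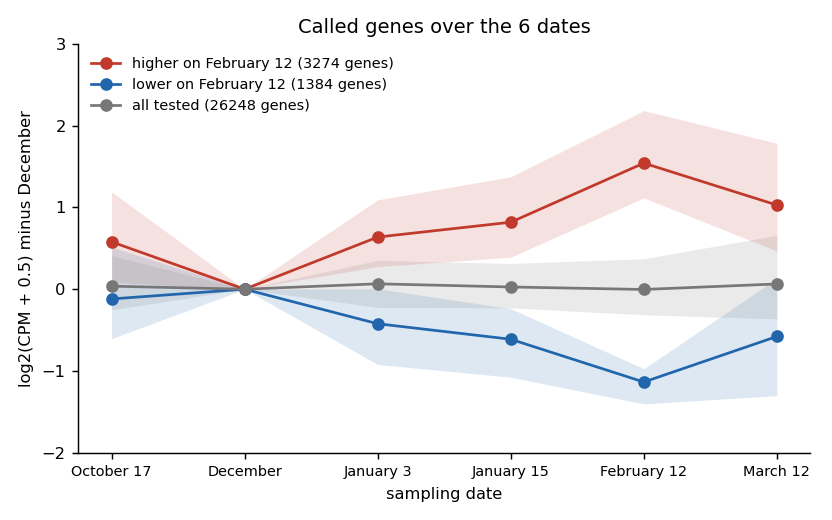
Median over genes of log2(CPM + 0.5) minus its December value (y axis) at the 6 sampling dates (x axis), for the genes called higher or lower on February 12 and for all tested genes; bands span the middle 50% of genes. The higher genes had a median of 0.64 on January 3, 0.82 on January 15, 1.54 on February 12 and 1.03 on March 12, and the lower genes one of -0.42, -0.61, -1.14 and -0.58. On October 17 the medians were 0.58 and -0.12.

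The total count per library lay between 10340452 and 16221912 in the 6 libraries. Replicate 2 of February 12 stood farthest from its date, with a median absolute log2 difference of 0.204 from the mean of the other 2 libraries against 0.126 to 0.185 in the other 5. It was the highest of the February 12 libraries for 2553 (78.0%) of the 3274 higher genes and the lowest for 780 (56.4%) of the 1384 lower genes, where over all tested genes it was the highest for 36.2% and the lowest for 39.7%. Without this library 2862 genes were higher and 1183 lower, and 2781 and 1066 of these were also called with it. Where the call of a gene named here turned on this library, that is said beside its values.

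The median over the higher genes rose, and that over the lower genes fell, at each date from December to February 12. The direction between these 2 ends was fixed by the choice of the genes. On October 17 the medians relative to December were 0.58 for the higher and -0.12 for the lower genes. The genes were chosen with these same December libraries, which by itself tends to set other dates above December for the higher genes and below it for the lower. The medians of the other dates are therefore no separate result. The comparison of January 15 with January 3 shares no library with that of February 12 with December, only the estimate of the spread. It called 765 genes (2.91%) higher and 390 (1.49%) lower on January 15. No fit of it left out a library, and January 15 replicate 2 was the highest of its date for rising genes named below. Of the 3274 genes that were higher on February 12 than in December, the comparison of the January dates called 360 (11%) higher and 51 lower. Of the 1384 lower genes, it called 117 (8.45%) lower and 37 higher. March 12 against October 17, which also shares no library with it, called 3458 genes (13.2%) higher and 2028 (7.73%) lower on March 12. There, 1008 (30.8%) of the 3274 genes were higher and 233 lower, and 457 (33%) of the 1384 genes were lower and 147 higher.

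Of the 585 transport candidates, 316 passed the filter. Of the 269 that did not, 135 had no count in any of the 18 libraries and 74 had at least 1 count in the 6 libraries compared. The candidates called numbered 49 higher (15.5% of those tested, against 12.5% of all genes) and 32 lower (10.1%, against 5.27%), and the median log2 fold change of the 316 was -0.09. In 88 candidates all 3 February 12 libraries lay above all 3 December libraries and in 87 they lay below, against 27.4% and 25.1% of all tested genes. The symplasmic candidates had 31 higher and 18 lower genes among 198 tested, the apoplastic candidates 16 and 12 among 100, and the vascular regulators 2 and 2 among 18. Of the 49 higher candidates, 24 had their highest mean of the 6 dates on February 12 and 16 on March 12. Of the 32 lower candidates, 21 had their lowest mean on February 12, while their highest mean fell on October 17 in 12, in December in 9 and on March 12 in 8. Without replicate 2 of February 12 the counts were 45 higher and 24 lower.

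**Figure D2:**
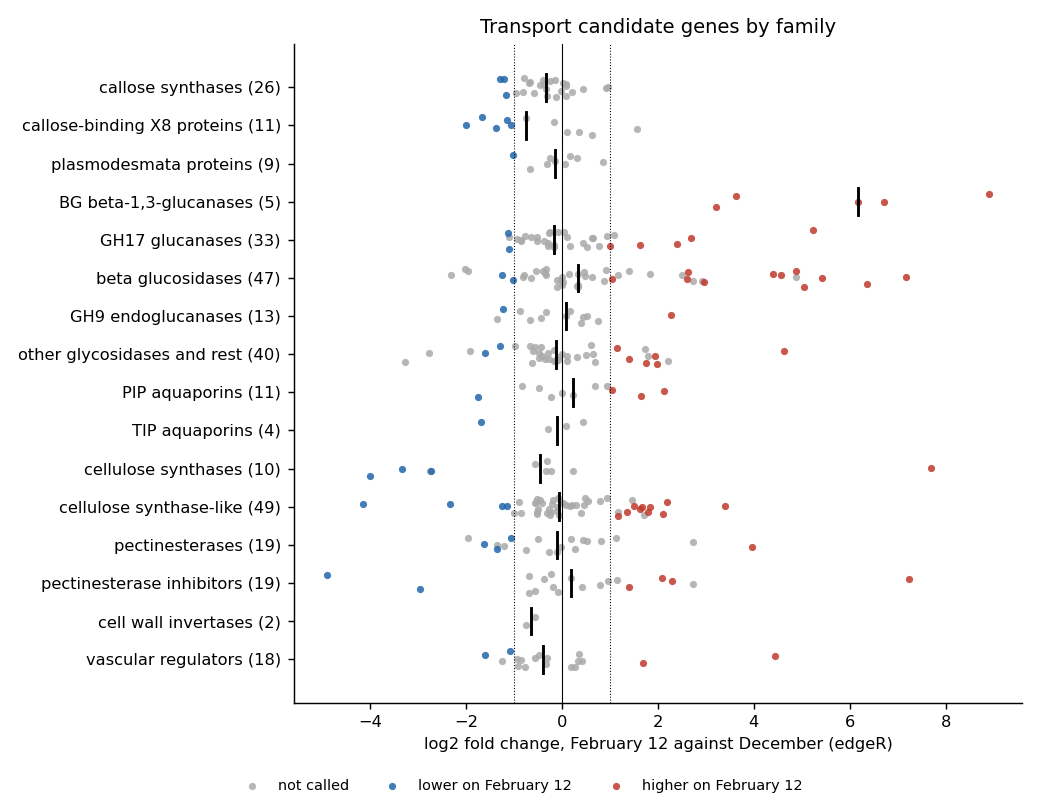
Log2 fold change of February 12 against December (x axis) for each tested transport candidate, by family (y axis, number tested in brackets); black bars are family medians, dotted lines the 2-fold thresholds, and red and blue points the genes called higher and lower. All 5 tested BG beta-1,3-glucanases lie over 3, whereas no callose synthase or callose-binding X8 protein is called higher.

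The widest rises among the candidates were in the BG beta-1,3-glucanases, named after Arabidopsis beta-1,3-glucanases, a class of enzymes that cleave callose. All 5 of the 13 BG genes that passed the filter were higher on February 12 (100%, against 12.5% of all genes). The other 8 had at most 6 counts in the 6 libraries together. The 5 carry nearby identifiers, from PAV07g0328831 to PAV07g0329001, and reads shared between close copies are in general left out by the counting program, so the split of counts among them is uncertain. BG_3E measured 0, 0.46 and 0 CPM in the December libraries and 42.4, 133 and 35.2 CPM in those of February 12. Its log2 fold change was 8.91 ± 1.00 (SE, adjusted p = 1.47e-06), the largest among the candidates with a count in both groups. All 5 of its December counts were in replicate 2, so that the size rests on that library: without it the December group is at 0, and the fitted log2 fold change of 12.87 is then no bound, while without February 12 replicate 2 it was 8.06. Replicate 2 was well above the other February 12 libraries, and each February 12 library was far above each December library.

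BG_1A rose from 0.0654, 0.276 and 0.188 CPM to 9.38, 16.9 and 11.6 CPM, a log2 fold change of 6.18 ± 0.41 (SE, adjusted p = 4.15e-09). BG_3A had no count in December and 0.908, 1.57 and 0.485 CPM on February 12, at least 12.0-fold higher against a floor of 3 counts over the December group. Both genes were thus close to silent in December, with ranges that did not overlap those of February 12. The remaining members were chosen after their values were seen. BG_3C was already well expressed in December, at 305 ± 67.3 CPM (SD, n = 3), and measured 2825 ± 1184 CPM on February 12, with a log2 fold change of 3.21 ± 0.36 (SE, adjusted p = 1.55e-06). BG_3B went from 0.772 ± 0.324 to 9.34 ± 3.68 CPM. The median log2 fold change of the 5 genes was 6.18, or 3.62 with BG_3A set at its bound. These numbers depended on the filter, which BG_3A passed with 37 counts from February 12, where its mean was highest. With a mean count of at least 10, 4 genes were tested and all were higher, with a median of 4.88. With no filter, 5 of 10 were higher, with a median of 2.97.

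The GH17 genes belong to the glycoside hydrolase family that holds the plant beta-1,3-glucanases. The study keeps the BG genes apart from them on the basis of annotation databases, so the split between these lists is one of annotation. As a list, the GH17 genes did not follow the BG genes. Of 33 tested, 5 were higher (15.2%) and 2 lower (6.06%), close to the shares over all genes, and their median log2 fold change was -0.16. The number of lower genes was 4 without December replicate 2 and 1 without February 12 replicate 2. GH17_22 was the exception in size. It measured 32.2, 41.7 and 24.2 CPM in December and 866, 1758 and 1045 CPM on February 12, with a log2 fold change of 5.22 ± 0.39 (SE, adjusted p = 1.70e-08). Each February 12 library was far above each December library.

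GH17_25 had 8.63, 10.7 and 8.94 CPM in December and 30.7, 34.1 and 22.7 CPM on February 12, a log2 fold change of 1.64 ± 0.21 (SE, adjusted p = 5.66e-06). GH17_5 measured 37.1, 48.4 and 35.4 CPM and then 65.1, 104 and 72.6 CPM. It sat at the threshold, with a log2 fold change of 1.00 ± 0.15, and fell to 0.77 without replicate 2 of February 12. The ranges of both genes did not overlap between the dates. GH17_34 (2.39 ± 0.26) and GH17_4 (2.70 ± 0.66), which were named after their values were seen, made up the 5 higher genes.

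In the other direction, GH17_37 went from 13.5, 15.0 and 14.7 CPM to 8.90, 5.07 and 5.53 CPM, and its log2 fold change of -1.12 ± 0.18 became -0.96 without replicate 2 of February 12. GH17_10, named after its values were seen, had a log2 fold change of -1.10 ± 0.13 and was also not called without that library. Among the GH17 genes that were not called, GH17_13 had a log2 fold change of -0.94 ± 0.10, GH17_28 one of -0.64 ± 0.08 and GH17_30 one of -0.30 ± 0.15. GH17_13 and GH17_28 had an adjusted p under 0.05 but stayed within 2-fold, and GH17_30 had an adjusted p of 0.100. GH17_3 (-0.07 ± 0.10), GH17_9 (1.09 ± 0.64) and GH17_19 (-0.27 ± 0.13), which the study also names and which were added after their values were seen, were not called either. The family thus held genes that rose steeply beside genes that moved the other way.

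**Figure D3:**
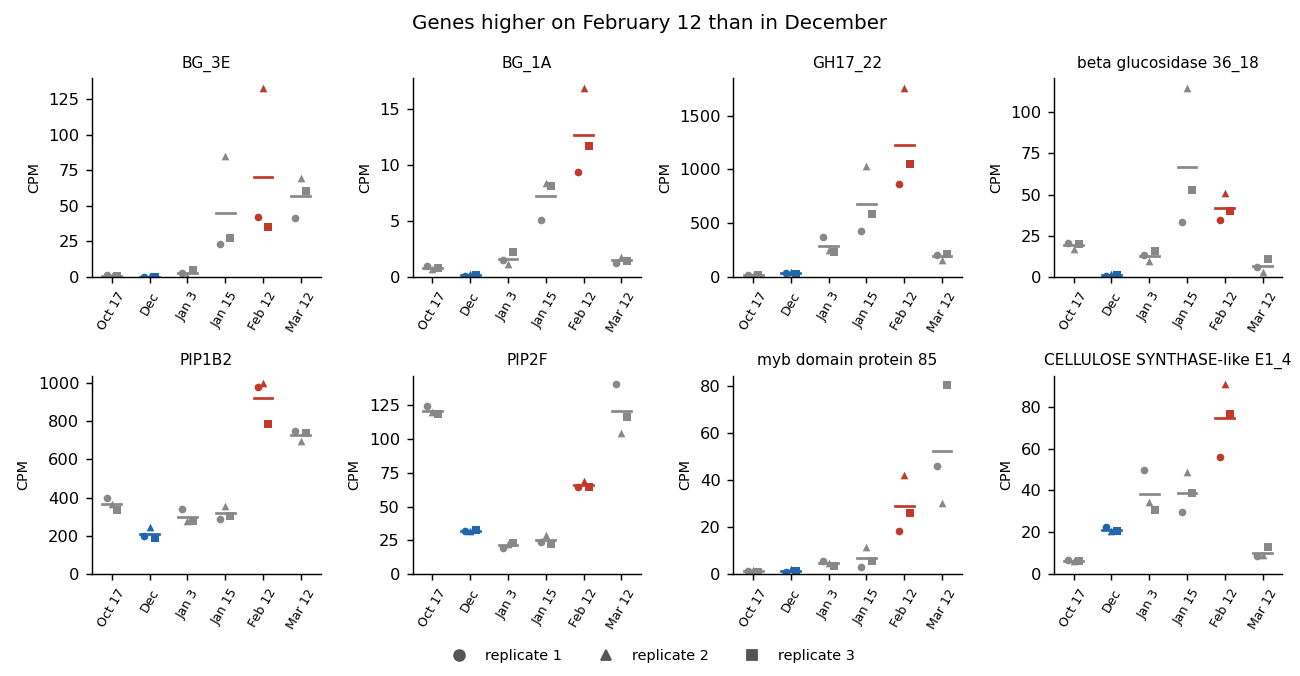
CPM (y axis, starting at 0) of 8 genes called higher on February 12, in each library of the 6 sampling dates (x axis); marker shapes are replicates, lines are date means, December is blue and February 12 red. BG_1A and GH17_22 were highest on February 12 and had means of 1.47 and 190.2 CPM on March 12, while myb domain protein 85 had a mean of 28.9 CPM on February 12 and 52.3 CPM on March 12.

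Callose synthases, the enzymes that make callose, had no gene called higher with all libraries in the fit. Of 26 tested, 3 were lower (11.5%, against 5.27% of all genes) and the median log2 fold change was -0.32. The count depended on single libraries, with 1 lower gene without December replicate 1, and 4 lower and 1 higher without December replicate 2. GSL_3, annotated as glucan synthase-like 12 of Arabidopsis, measured 56.7, 30.6 and 50.7 CPM in December and 20.6, 14.9 and 20.6 CPM on February 12. The groups did not overlap, and the log2 fold change was -1.30 ± 0.25 (SE, adjusted p = 4.12e-04). The other 2, named after their values were seen, have neighbouring identifiers and low levels. GSL_7A (PAV03g0164971) went from 3.10 ± 1.12 to 1.35 ± 0.234 CPM and CALS_1B (PAV03g0164981) from 3.39 ± 1.66 to 1.51 ± 0.245 CPM. In both, December replicate 2 was well below the other December libraries, and for CALS_1B its 1.47 CPM lay within the February 12 range. Neither gene was called without December replicate 1, nor CALS_1B without December replicate 3 or with the 6 libraries alone.

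Proteins with an X8 domain bind callose, and those called PDCB are plasmodesmata callose-binding proteins. Of 11 tested, 5 were lower (45.5%, against 5.27% of all genes), none was higher (against 12.5%) and the median log2 fold change was -0.76. This count rested in part on 1 library, since 2 were lower without replicate 2 of February 12, with a median of -0.55, and 4 were lower and 1 was higher without replicate 3. PDCB3A, named after its values were seen, measured 189, 221 and 192 CPM in December and 127, 66.7 and 92.3 CPM on February 12. Its log2 fold change was -1.07 ± 0.17 (SE, adjusted p = 4.83e-05), and it was among the calls lost without that library.

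Carbohydrate-binding X8_4 fell from 0.981, 1.10 and 1.13 CPM to 0.424, 0.277 and 0 CPM, a log2 fold change of -2.0 ± 0.54 at levels of few counts, which was -2.83 without February 12 replicate 1. PDCB5A had a log2 fold change of -0.76 ± 0.23 and PDCB5B one of 0.62 ± 0.30, and neither was called. PDCB5B stayed at 1.19 ± 0.559 and 1.86 ± 0.489 CPM on the 2 dates, against a mean of 467 CPM on March 12.

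Plasmodesmata-located proteins sit in the membrane of the channel, and several are known in Arabidopsis to raise callose there. Of the 9 tested plasmodesmata proteins, 1 was lower (11.1%, against 5.27% of all genes) and none higher (against 12.5%). PDLP1 measured 11.4, 10.3 and 11.2 CPM in December and 5.27, 5.25 and 5.72 CPM on February 12. Its replicates were tight at both dates, but its log2 fold change of -1.02 ± 0.13 (SE, adjusted p = 7.41e-06) was close to the threshold and became -0.991 without December replicate 1 and -0.999 without February 12 replicate 1, on the other side of it. PDLP8 had a log2 fold change of -0.31 ± 0.24 and was not called.

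Beta glucosidases remove glucose from small glucosides, among them stored defence compounds and the lignin precursor coniferin. Of 161 candidates 47 passed the filter, with a median log2 fold change of 0.34. Of these, 11 were higher (23.4%, against 12.5% of all genes) and 2 lower (4.26%, against 5.27%). The share depended on the filter: with none, 11 of 92 were higher, with a median of 0. With a mean count of at least 10, 8 of 38 were higher, and 8 of 47 were without December replicate 1. Of the 11, 4 carry neighbouring identifiers from PAV07g0336501 to PAV07g0336551, so that counts shared among close copies are uncertain here too. Beta glucosidase 36_18 measured 0.523, 1.56 and 0.942 CPM in December and 34.6, 50.8 and 40 CPM on February 12, a log2 fold change of 5.42 ± 0.54 (SE, adjusted p = 4.29e-07).

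Beta glucosidase 2_8, annotated as a cyanogenic beta-glucosidase, went from 0.0654, 0.0920 and 0 CPM to 3.81, 6.82 and 5.24 CPM (6.36 ± 0.76). An entry whose Arabidopsis match is cytochrome P450 but whose second annotation is beta-glucosidase rose from 0.347 ± 0.142 to 12.0 ± 5.39 CPM. Beta glucosidase 36_19, the last of the 4 and named after its values were seen, rose from 1.13 ± 0.381 to 27 ± 10.2 CPM. All 4 genes were at or under 1.56 CPM in each December library and at or over 3.81 CPM in each February 12 library.

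Outside this group, beta glucosidase 36_28 had no count in December and 0.605, 2.03 and 1.55 CPM on February 12, at least 15.6-fold higher. It passed the filter with 48 counts from February 12, where its mean was highest. The 3 genes named beta-glucosidase 47_3, 47_4 and 47_5, the first 2 annotated as coniferin beta-glucosidases, were named after their values were seen and were also higher, with beta-glucosidase 47_4 going from 0.453 ± 0.148 to 10.0 ± 2.77 CPM. Beta-glucosidase 47_3 and 47_5 were not called without December replicate 1, nor 47_5 without replicate 2 of both dates. Beta glucosidase 36_38, the larger of the 2 called falls, had a log2 fold change of -1.25 ± 0.39 and was not called when December replicate 2, February 12 replicate 1 or February 12 replicate 3 was left out.

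Among 13 tested GH9 endoglucanases, which cut beta-1,4-glucans of the wall, 1 was higher and 1 lower. Each was 7.69%, against 12.5% higher and 5.27% lower of all tested genes. GH9_1B measured 3.53, 4.69 and 3.01 CPM in December and 18.3, 21.7 and 14.4 CPM on February 12 (log2 fold change 2.28 ± 0.22). GH9_17 went from 98.6, 64.8 and 107 CPM to 42.1, 33.7 and 39.3 CPM (-1.23 ± 0.23). Neither pair of ranges overlapped, and the family median was 0.08. Of the 40 tested other glycosidases and remaining entries 6 were higher (15%) and 2 lower (5%), close to the shares over all genes. The largest rise there was in an entry named pathogenesis-related thaumatin superfamily protein, whose second annotation is glucan endo-1,3-beta-glucosidase, from 2.75, 1.38 and 2.54 CPM to 42.7, 78.1 and 49.1 CPM (4.63 ± 0.34). The larger called fall was in the entry six-hairpin glycosidases, from 2.93 ± 0.161 to 0.955 ± 0.119 CPM (-1.60 ± 0.26). The genes named GH-31_3, GH-31_4 and GH-31_5, chosen after their values were seen, have nearby identifiers from PAV04g0198421 to PAV04g0198451 and rose together, with log2 fold changes of 1.76 ± 0.19, 1.41 ± 0.17 and 1.98 ± 0.32.

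Aquaporins moved in opposite directions within 1 subfamily. Of 11 plasma membrane intrinsic proteins (PIP), which let water cross the outer membrane of the cell, 3 were higher and 1 lower. These were 27.3% and 9.09%, against 12.5% and 5.27% of all tested genes. PIP1B2 measured 200, 246 and 187 CPM in December and 978, 998 and 784 CPM on February 12, and its log2 fold change was 2.13 ± 0.12 (SE, adjusted p = 9.63e-10). PIP1B3, annotated as the same Arabidopsis protein, measured 167, 162 and 174 CPM and then 57.9, 40.9 and 50.8 CPM, with a log2 fold change of -1.75 ± 0.10 (SE, adjusted p = 1.08e-09). The December levels of both thus moved apart by February 12, with no overlap between dates in either.

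PIP1B1, the third gene of that annotation, which the study names but which was added here after its values were seen, rose from 14.6 ± 1.06 to 45.9 ± 5.59 CPM (1.66 ± 0.13). PIP2F measured 31.7, 31.9 and 32.6 CPM in December and 64.8, 68.9 and 64.7 CPM on February 12, a log2 fold change of 1.04 ± 0.11. PIP3B had one of -0.82 ± 0.15 and was not called. The spread between replicates of PIP2F was small, and its mean of 121 CPM on October 17 and again on March 12 was higher than at either date compared here.

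Tonoplast intrinsic proteins (TIP) carry water across the membrane of the vacuole. Of 4 tested, DELTA-TIP was lower (25%, against 5.27% of all genes) and none was higher (against 12.5%). DELTA-TIP measured 194, 217 and 207 CPM in December and 91.0, 47.4 and 51.3 CPM on February 12, a log2 fold change of -1.69 ± 0.21 (SE, adjusted p = 4.48e-06). GAMMA-TIP1 had 171 ± 19.1 CPM in December and 140.4 ± 46 CPM on February 12, with ranges that overlapped and an adjusted p of 0.319.

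**Figure D4:**
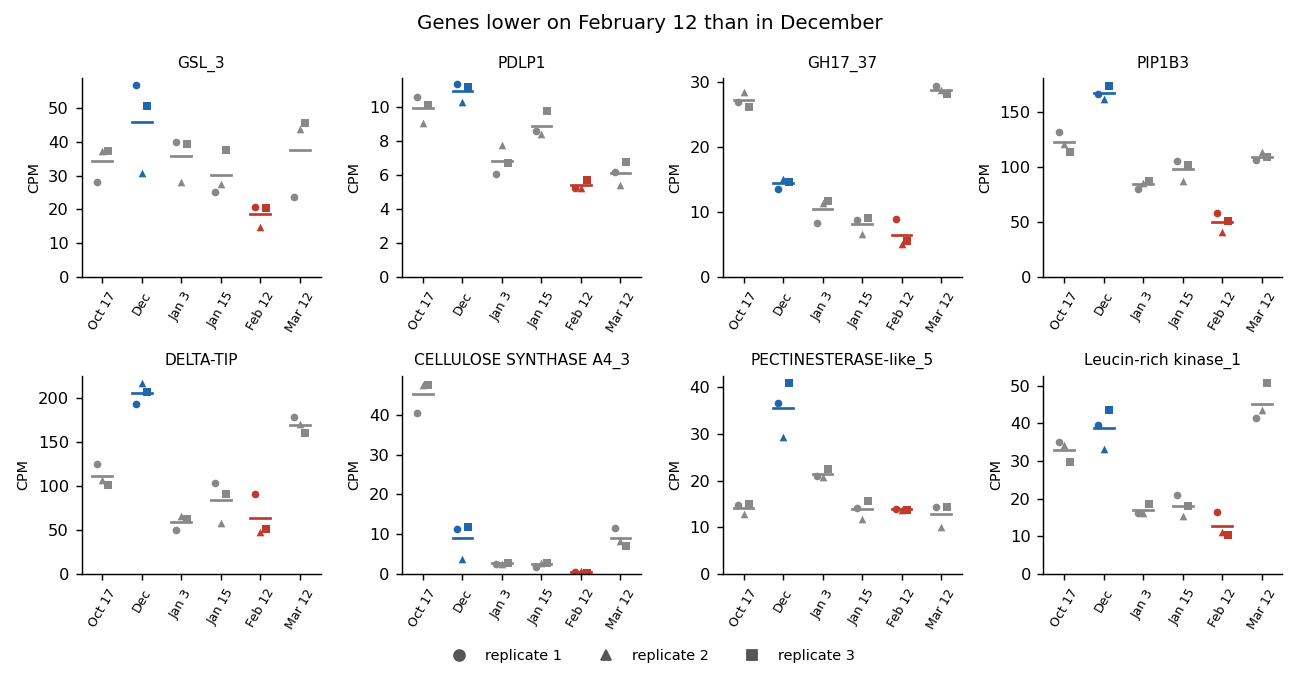
CPM (y axis, starting at 0) of 8 genes called lower on February 12, in each library of the 6 sampling dates (x axis); marker shapes are replicates, lines are date means, December is blue and February 12 red. DELTA-TIP had means of 206 CPM in December, 63.2 CPM on February 12 and 169 CPM on March 12, while CELLULOSE SYNTHASE A4_3 had its highest mean, 45.1 CPM, on October 17.

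Cellulose synthases make the load-bearing glucan of the wall, and in Arabidopsis CESA4 belongs to the complex of secondary walls, as in xylem. Of 10 tested, 3 were lower (30%, against 5.27% of all genes) and 1 higher (10%, against 12.5%). CELLULOSE SYNTHASE A4_3 measured 11.3, 3.87 and 11.8 CPM in December and 0.605, 0.830 and 0.194 CPM on February 12, a log2 fold change of -4.0 ± 0.43 (SE, adjusted p = 9.49e-07). CELLULOSE SYNTHASE A4_2, whose identifier is next to it (PAV08g0395601 and PAV08g0395591) and which was named after its values were seen, went from 5.98 ± 2.07 to 0.596 ± 0.256 CPM (-3.34 ± 0.35). Both had their highest mean on October 17, at 45.1 and 38.8 CPM.

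CELLULOSE SYNTHASE 5_1 (PAV07g0358461) and CELLULOSE SYNTHASE-like_3_1 (PAV07g0358471), again neighbours, followed the same course. The second measured 9.16, 4.60 and 7.34 CPM in December and 0.484, 0.553 and 0.0970 CPM on February 12, and its log2 fold change of -4.14 ± 0.40 (SE, adjusted p = 2.91e-07) was the largest fall among candidates with a count at both dates. The first, named after its values were seen, had a log2 fold change of -2.72 ± 0.62. CELLULOSE SYNTHASE 6_2 had no count in December and 1.21, 3.32 and 1.36 CPM on February 12, at least 22.8-fold higher, although its second annotation is a receptor-like protein.

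The cellulose synthase-like genes, whose products make other wall glycans, had 10 higher (20.4%) and 4 lower (8.16%) members of 49 tested. Over all tested genes the shares were 12.5% and 5.27%, and the family median was -0.06. CELLULOSE SYNTHASE-like E1_4 measured 22.6, 20.6 and 20.5 CPM in December and 56.1, 90.6 and 76.6 CPM on February 12 (1.80 ± 0.20, adjusted p = 1.62e-06). CELLULOSE SYNTHASE-like B4_1 (PAV03g0170411) went from 0.262, 0.368 and 0.377 CPM to 3.81, 4.33 and 2.52 CPM (3.41 ± 0.35). CELLULOSE SYNTHASE-like B4_2 (PAV03g0170401), its neighbour by identifier, went the other way, from 60.7, 70.4 and 66.8 CPM to 38, 29.7 and 31.2 CPM. The log2 fold change of B4_2 was -0.99 ± 0.13, just inside the 2-fold threshold, so it was not called. The log2 fold changes of the higher genes of this family ranged from 1.17 ± 0.33 in CELLULOSE SYNTHASE-like G2_3, which was named after its values were seen and not called without replicate 2 of February 12, to that of B4_1.

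Pectinesterases remove methyl groups from pectin, the gel of the wall, and pectinesterase inhibitors block them. Of 19 tested pectinesterases, 1 was higher (5.26%, against 12.5% of all genes) and 3 were lower (15.8%, against 5.27%). Without February 12 replicate 2, 2 were higher and 2 lower. PECTINESTERASE-like_5 measured 36.6, 29.3 and 41 CPM in December and 13.9, 13.8 and 13.8 CPM on February 12, a log2 fold change of -1.36 ± 0.14 (SE, adjusted p = 6.74e-07). PECTINESTERASE-like_30 had one of -1.62 ± 0.32 from 2.05 ± 0.781 CPM, or -2.23 without February 12 replicate 1. PECTINESTERASE-like_52 rose from 1 count over the December libraries to a mean of 0.566 CPM (3.95 ± 1.12, from 3.34 without December replicate 1 to 5.93 without December replicate 3), and PECTINESTERASE-like_3, at 0.82 ± 0.34, was not called, but was at 1.15 without February 12 replicate 2.

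Of 19 tested inhibitors, 4 were higher (21.1%, against 12.5% of all genes) and 2 lower (10.5%, against 5.27%). Without replicate 2 of February 12, 3 were higher and 1 lower. PECTIN_INHIB_like_21 had no count in December and 1.21, 2.77 and 0.291 CPM on February 12, at least 17.2-fold higher. PECTIN_INHIB_like_17 had 0.262, 0.0920 and 0.471 CPM in December and no count on February 12, at least 3.42-fold lower. It was not called without December replicate 3 or without February 12 replicate 1. These inhibitor genes rested on few counts, and the higher gene with the highest level in both months, PECTIN_INHIB_like_11 (named after its values were seen), went from 15.3 ± 1.90 to 75.6 ± 36.4 CPM. The 2 tested cell wall invertases, which split sucrose in the wall space, had log2 fold changes of -0.75 and -0.56 and were not called.

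Vascular regulators steer cambium activity and the making of xylem and phloem, and 18 of 24 were tested. In Arabidopsis, MYB85 activates lignin genes in secondary walls, and MYB7 belongs to a group of repressors of phenylpropanoid genes. The gene named myb domain protein 85 measured 0.850, 2.02 and 1.22 CPM in December and 18.5, 42.3 and 26 CPM on February 12, with a log2 fold change of 4.43 ± 0.53 (SE, adjusted p = 3.10e-06). The gene named myb domain protein 7 went from 3.40, 5.25 and 4.43 CPM to 12.7, 15.1 and 14.2 CPM (1.69 ± 0.18). Both MYB genes were thus higher in each February 12 library than in any December library, whereas the cellulose synthase A4 genes above were lower.

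A leucine-rich repeat kinase, Leucin-rich kinase_1, fell from 39.5, 33.2 and 43.6 CPM to 16.4, 11.2 and 10.5 CPM (-1.59 ± 0.16). The gene listed as WUSCHEL related homeobox 4, named after its values were seen, went from 6.72 ± 0.853 to 3.16 ± 0.458 CPM (-1.08 ± 0.22). The one listed as WUSCHEL related homeobox 14 had a log2 fold change of 0.35 ± 0.10 and was not called. The study's gene table gives these names the other way round in its Arabidopsis annotation, so which of them is WOX4 is uncertain. CLAVATA3/ESR-RELATED 42, whose name is swapped with that of CLE44 in the same way, had one of 0.28 ± 0.13 and was not called.

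The change from December to February 12 can be followed through its 3 sampling intervals, of which the first and the last share libraries with it. Between December and January 3, 1663 genes (6.34%) were higher and 1063 (4.05%) lower at the later date. Between January 15 and February 12, 1864 (7.10%) were higher and 1023 (3.90%) lower. The named candidates differed in which interval carried their change.

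The BG genes and the beta glucosidases of the neighbouring identifiers rose early. Some of this was a return from a December low. Beta glucosidase 36_18 had means of 19.1 CPM on October 17, 1.01 CPM in December and 12.8 CPM on January 3. The entry matched to cytochrome P450 had 9.96, 0.347 and 2.01 CPM. BG_1A, with 0.838, 0.177 and 1.61 CPM, was above its October mean by January 3. BG_1A had log2 fold changes of 3.21 to January 3, 2.17 to January 15 and 0.80 to February 12, and the last of these did not pass the 2-fold threshold. GH17_22 followed with 3.12, 1.25 and 0.85. Beta glucosidase 36_18 had 3.72 and 2.40 and then -0.69 (adjusted p = 0.13), with its highest mean, 67.1 CPM, on January 15. That mean leaned on replicate 2, since the January 15 libraries measured 33.6, 115 and 52.8 CPM. Replicate 2 was also the highest of that date for BG_3E (22.9, 85.1 and 27.4 CPM) and GH17_22 (423, 1032 and 586 CPM). No fit left out a January 15 library. On January 15 against January 3, the interval that shares no library with the comparison of December and February 12, all 5 tested BG genes were higher, as were 9 of the 47 tested beta glucosidases (1 was lower), against 2.91% of all genes.

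Other genes changed in the last interval. PIP1B2 had log2 fold changes of 0.51, 0.08 and 1.53, PIP2F of -0.56, 0.22 and 1.39, and GH17_5 of -0.53, 0.37 and 1.16. GH17_25 first fell by 1.76 and then rose by 1.10 and 2.29. The rise of PIP2F and GH17_25 over the whole period was therefore smaller than that of the last interval alone. GH9_1B likewise had -1.13 at first, then 2.34 and 1.06.

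Among the genes that fell, DELTA-TIP had its change in the first interval, with a log2 fold change of -1.79 followed by 0.49 and -0.40. PIP1B3 fell in 2 steps of -0.99 and -0.97 around a flat interval of 0.22, neither of which alone passed the 2-fold threshold. CELLULOSE SYNTHASE A4_3 also fell in 2 steps, of -1.76 and -2.15 around -0.10, and CELLULOSE SYNTHASE-like_3_1 in steps of -1.49 and -2.83 around 0.19. In these genes each step passed the 2-fold threshold on its own. PECTINESTERASE-like_5 fell by 0.73 and 0.63 and then stayed level. Of the 32 lower candidates, none was lower and 1 was higher on January 15 than on January 3. Of all 1384 lower genes, 117 (8.45%) were lower and 37 higher. Of the 49 higher candidates, 17 were higher (34.7%) and 1 was lower, and the 17 include the 5 tested BG genes. Of all 3274 higher genes, 360 (11%) were higher and 51 lower. The shares over all tested genes were 2.91% higher and 1.49% lower.

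**Figure D5:**
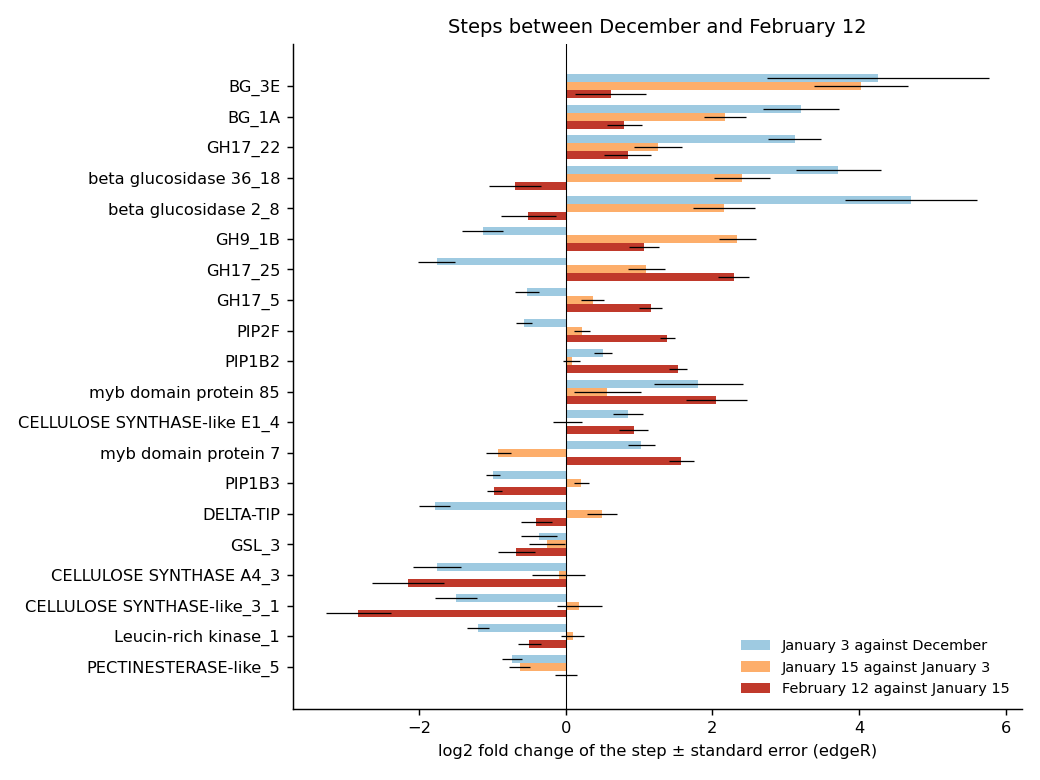
Log2 fold change with its standard error (x axis) in each of the 3 intervals from December to February 12, for 20 named genes (y axis). BG_1A and BG_3E rose mostly before January 15, PIP1B2 and PIP2F after it, and the cellulose synthase A4_3 fell in the first and last interval and had a log2 fold change of -0.10 in the middle one.

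Outside the candidates, the largest fitted changes were larger than any within them. PAV06g0267801 had no count in December and 7.57, 15.9 and 11.9 CPM on February 12, at least 137-fold higher. PAV04g0189731 had 1 count over the December libraries and 20.8, 48.4 and 19.2 CPM on February 12, with a log2 fold change of 9.65 ± 1.12. In the other direction, PAV06g0300941 went from 1.64, 1.56 and 2.54 CPM to no count, at least 23.6-fold lower, and PAV08g0377841 from 23.1, 42.9 and 23.3 CPM to 0.303, 0.0922 and 0.0970 CPM (-7.25 ± 0.41). The files give these genes by identifier alone. Over all called genes, 121 had no count at 1 of the 2 dates.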

How the data were processed

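RNA was extracted from frozen flower buds, and stranded mRNA libraries were sequenced. Per the methods and labels of the study, the authors trimmed reads with Trimmomatic 0.36, aligned them with STAR to the 'Regina' genome and made gene counts with HTSeq. The deposited values are raw counts per gene, with no normalization. Counts of all 18 libraries were scaled by TMM (trimmed mean of M-values), then tested in edgeR 4.0.16 (R 4.3.3), with the quasi-likelihood test, 1 mean per date and 12 residual degrees of freedom. The filter kept genes whose mean count was 3 or more and that were at 0 in no more than 75% of libraries. Calls needed a Benjamini-Hochberg adjusted p under 0.05 over all 26248 genes and an absolute log2 fold change over 1. CPM are counts per 1000000 of the TMM-scaled library size, and 1 count equals 0.0605 to 0.0970 CPM in the 6 libraries. Errors are standard errors (the log2 fold change divided by the square root of F) or SD of 3 replicates. The sources used here do not say whether a replicate number stands for 1 tree throughout. Folds against a date at 0 use a floor of 3 counts over the group. Floors cover counting error only.

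The candidate names come from the study's gene table, with 524 identifiers matched exactly and 61 by their trailing number. Named genes were 23 that the study names for their expression profiles (not all that it names), the largest called rise and fall of each of 16 families, the 10 largest called candidates and, outside them, the 2 largest changes in each direction. The members and lists were chosen with earlier results of these data known. On simulated counts for February 12 against December with 26248 genes, 90 of 100 genes changed 3-fold and 100 of 100 changed 6-fold were recovered, with 3 false calls. The simulation gave all genes the same dispersion and held no deviating library, unlike the measured data, so it checks the procedure only. The share of false calls in the measured libraries was not tested. Alternatives were the test of DESeq2 1.42.0, its size factors in edgeR, upper quartile scaling, no filter or a mean count of at least 10, the 6 libraries alone, a replicate block, each library left out, and no fold threshold. Leaving out replicate 2 of both dates was added after seeing the data. Tables and figures were made with Python 3.11.15, pandas 2.3.3, numpy 2.4.6 and matplotlib 3.10.9. Gene coordinates and sequences were not used here.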

Additional observations from a re-analysis of the deposited data

How the results depend on the processing

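The counts of genes higher and lower on February 12 stayed within 1.5 times the main counts under every alternative that kept the fold threshold, from 2732 to 3412 higher and from 1183 to 1640 lower. Leaving out 1 library at a time gave 2862 to 3412 higher and 1183 to 1640 lower genes, and 44 to 52 higher and 24 to 34 lower candidates. DESeq2 gave 3199 and 1336, upper quartile scaling 3158 and 1507, and the fit without replicate 2 of either date, added after seeing the data, 2913 and 1231. With the adjusted p alone the counts were 6301 and 5775 genes and 76 and 81 candidates. Same-numbered libraries of the 2 dates did not deviate together (correlations of -0.07, -0.04 and 0.07), so that the numbers were not taken as pairs. A replicate block gave 3253 higher and 1388 lower genes, with 3227 and 1360 of them shared with the fit without it, and for GH17_5 a log2 fold change of 0.995. Over the named genes and these alternatives, 637 values kept their direction and side of the thresholds, 19 fell below them, 10 passed them and 1 changed sign: PDLP8, which was not called, lay between -0.54 and 0.0050 with libraries left out, the second without replicate 2 of either date. The cause was not tested. GH17_5 lay between 0.77 and 0.98 in the other settings in which it was not called, and genes near 0.1 CPM rest on 1 or 2 counts per library.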
